A study of Mus musculus with 200 samples.

Results

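Wild-type GFPlo cells are single cells of the thymus medulla that were sorted at the low end of a green fluorescent protein (GFP) reporter of Aire. All 39 cells labelled WT_GFPlo among the 200 single cells of the series were taken, and the sort date recorded for each cell divided them into 18 cells of the earlier and 21 cells of the later date. Every cell came from the thymus of a female B6xNOD mouse, 5 weeks of age, that was wild type for Aire and carried the Aire-GFP transgene. The cells were negative for the blood cell antigen CD45 and for Ly51, which marks cortical epithelium, and positive for MHC class II. The low gate rests on a transgene driven as a marker of Aire, so fluorescence is a stand-in for Aire and not a measure of it. The 23 and 38 wild-type cells of the high GFP gate (GFPhi) from the same dates carried the same reporter and are given beside the low cells. Low-gate cells of Aire knockout mice of the same strain, sex, age and reporter (KO_GFPlo, 22 and 30 cells on the same dates) are given at the end.

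The labels name no animal, so the cells of a date counted as 1 sample and no test between dates was possible. For each date the counts of its cells were added gene by gene, and a level is a gene's share of the total in counts per 1000000 (CPM). Levels carry exact Poisson 95% intervals, and ratios carry exact conditional binomial 95% intervals. These intervals cover the counting error of tags only, not the spread between animals or sorts. The earlier cells came from pools 1 to 6 and the later cells from pools 8 to 12, and the antibody dye for CD45 changed as well. Date, library pool, sequencing run and dye cannot be told apart. Total counts per cell ran from 5417 through a median of 26165.5 to 307380 on the earlier date (sum 1088151). On the later date they ran from 9184 through 32367 to 187107 (sum 1172521). The deepest cell held 28.2% of the earlier and 15.96% of the later sum. No pair of cells had identical counts, and all 6 primer names in use recurred across pools.

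Medullary thymic epithelial cells show developing T cells the proteins of other organs, so that T cells reacting to them can be removed or diverted. Aire, a nuclear protein, drives many of these tissue antigens in mature medullary cells, and Fezf2 is a transcription factor that drives another set. Krt5 is the basal keratin that is known from medullary epithelium, and immature medullary cells carry less MHC class II and fewer costimulatory molecules than Aire-expressing cells.

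The low gate of the earlier date was rich in Aire and nearly without Krt5, and that of the later date was poor in Aire and rich in Krt5. Aire (chromosome 10, 78030022 to 78043610, minus strand, mm10) ranged from 0 through a median of 325 CPM to 1957 CPM over the earlier cells. Over the later cells Aire ranged from 0 through 15.9 to 202 CPM. The ranges overlapped, but 10 of the 18 earlier cells lay above the highest later cell. The summed Aire level was 465 CPM (425 to 507, 506 counts) on the earlier and 38.4 CPM (27.99 to 51.4, 45 counts) on the later date, a ratio of 12.1 (8.92 to 16.8). The cell with most Aire counts held 37.7% and 37.8% of them on the earlier and later date. In the GFPhi cells Aire was at 631 and 489 CPM.

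Aire counts were found in 14 of 18 earlier cells (77.8%, exact binomial interval 52.4 to 93.6) and in 12 of 21 later cells (57.1%, 34.02 to 78.2). With every cell thinned to 10000 counts, which left out the shallower cells, they were found in 10 of 14 earlier cells (71.4%, 41.9 to 91.6) and 5 of 18 later cells (27.8%, 9.69 to 53.5). The 2 intervals overlapped. They treat the cells of a date as independent, while the intervals of the levels treat tags so. The 2 kinds of interval therefore give no comparison of how clearly shares and levels were separated. A cell without Aire counts is not shown to lack Aire at these depths.

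Fezf2 (chromosome 14, 12342094 to 12348189, minus strand) was also higher on the earlier date. Its level ran from 0 through a median of 237 CPM to 4169 CPM over the earlier cells and from 0 through 27.8 to 1510 CPM over the later cells. Only 1 earlier cell exceeded every later cell. The sums gave 645 CPM (598 to 695) and 85.3 CPM (69.4 to 104), a ratio of 7.56 (6.13 to 9.42), with counts in 16 and 13 cells. Without the cells that held more leukocyte-list than epithelial counts the log2 ratio was 0.88, against 2.91 with all cells. In the GFPhi cells Fezf2 was at 1534 and 516 CPM, so it was higher on the earlier date in that gate too.

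Krt5 (chromosome 15, 101707070 to 101712898, minus strand) had the opposite order. Krt5 counts were found in 5 of 18 earlier and 20 of 21 later cells. The median cell was at 0 CPM on the earlier date, with a highest cell of 273 CPM, and at 652 CPM on the later date, with a highest cell of 3461 CPM. In all, 13 later cells exceeded every earlier cell. The summed level was 44.1 CPM (32.5 to 58.5) against 980 CPM (924 to 1038), 22.2-fold (16.6 to 30.3) higher on the later date. As a log2 ratio of earlier over later level this is -4.46, and it was -5.31 without pool 5 and -3.55 with the ls primers alone. In the GFPhi cells Krt5 was at 0.857 and 60.8 CPM, lower than in the low gate of the same date but again higher on the later date.

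**Figure D1:**
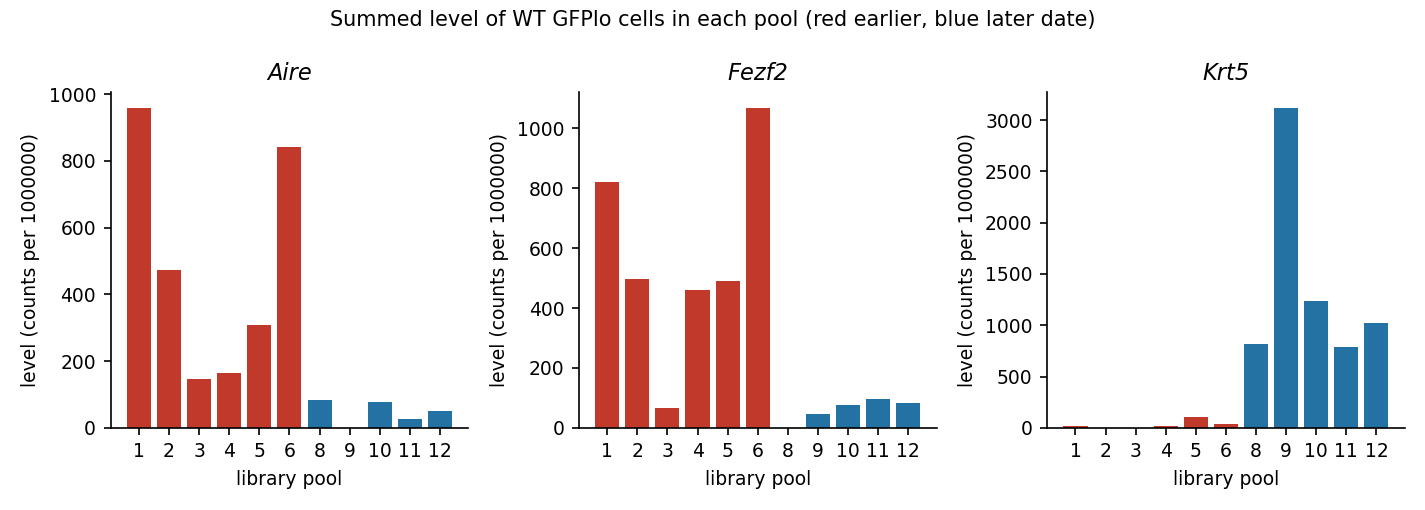
Summed level of Aire, Fezf2 and Krt5 (CPM) in the wild-type GFPlo cells of each library pool; red bars are pools of the earlier date, blue bars pools of the later date, and bars start at 0. Aire bars of the earlier date lie between 147 and 958 CPM, all above the later bars at 0 to 84.2 CPM, and the Krt5 bars are ordered the other way.

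The order of the dates held pool by pool for Aire and Krt5. Aire was at 958, 472, 147, 165, 308 and 842 CPM in pools 1 to 6 and at 84.2, 0, 76.2, 26.3 and 50.6 CPM in pools 8 to 12. Krt5 lay between 0 and 108 CPM in the earlier pools and between 786 and 3119 CPM in the later pools. Neither gene's pools overlapped between dates. The Fezf2 pools did overlap, at 65.4 to 1068 CPM and 0 to 95.9 CPM.

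Detection of Aire and of Krt5 was also counted together in each cell. On the earlier date 9 cells had Aire counts only, 5 had both genes, none had Krt5 only and 4 had neither. On the later date none had Aire only, 12 had both, 8 had Krt5 only and 1 had neither. Aire counts exceeded Krt5 counts in 14 of 18 earlier cells and 0 of 21 later cells, and Krt5 counts exceeded Aire counts in 0 earlier and 18 later cells. Aire or Fezf2 was detected in 18 of 18 earlier and 17 of 21 later cells, and both together in 12 and 8 cells. All the cells with Aire counts on the later date therefore had Krt5 counts as well.

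GFP readings of the cytometer were lower on the later date. GFP fluorescence, in the instrument's linear units, ranged from 1871 through a median of 5960 to 11329 over the earlier cells and from 350 through 2290 to 4483 over the later cells. In all, 9 earlier cells (7908 to 11329) exceeded every later cell. The GFPhi cells ranged from 16415 through 22563 to 44429 on the earlier and from 8169 through 20952.5 to 88538 on the later date. The medians of the high gate were thus close, but the gates overlapped between dates. The lowest high cell of the later date, at 8169, lay below the brightest low cell of the earlier date, at 11329. The median of the high gate was 3.79 times that of the low gate on the earlier and 9.15 times on the later date. The log2 ratio of the low-gate medians was 1.38 and was 0.70 without pool 1 and 0.78 without pool 3 or pool 4. Median side scatter was 4873.5 and 21454 in the low cells and 4877 and 22395 in the high cells, so its readings differed between dates. Whether the scale of side scatter or of GFP differed was not tested.

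Surface MHC class II had nearly the same median on both dates. It ranged from 35599 through a median of 57983.5 to 127350 over the earlier cells and from 35820 through 58032 to 143374 over the later cells. Without the cells that held more leukocyte-list than epithelial counts the medians were 72771 and 44327.5, the earlier date higher. The GFPhi medians were 53721 and 66014.

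The GFP transcript, counted by the authors in a separate column, was far higher on the earlier date. It gave 894 tags on the earlier and 54 on the later date, or 529 (495 to 565) and 28.03 (21.1 to 36.6) tags per 1000000 unique reads, a ratio of 18.9 (14.3 to 25.3). It was found in 13 of 18 and 10 of 21 cells, with medians of 38.3 and 0 and highest cells of 2341 and 262 on that scale. The median cell was thus far below the sum on each date. The log2 ratio of 4.23 became 3.41 without pool 11 and 5.76 without pool 12. In the GFPhi cells the order was the opposite, at 899 tags per 1000000 unique reads on the earlier and 1909 on the later date.

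**Figure D2:**
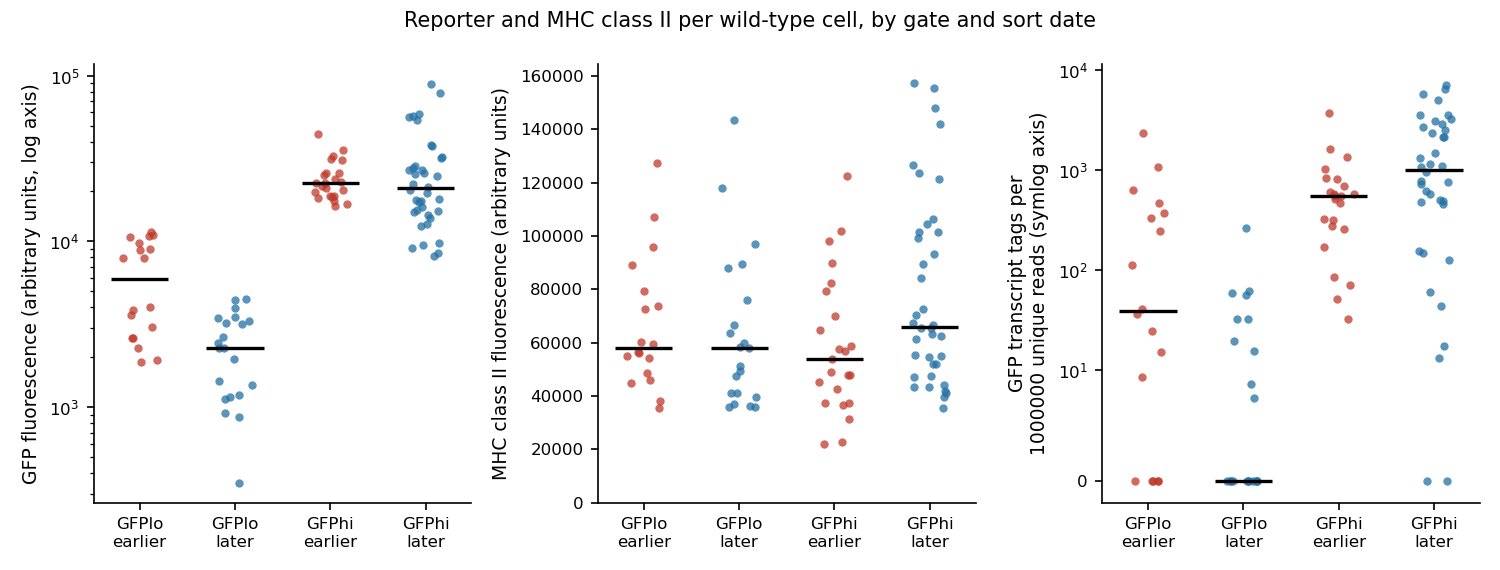
GFP fluorescence (log axis), MHC class II fluorescence (linear axis) and GFP transcript tags per 1000000 unique reads (linear near 0, log above) for each wild-type cell, by gate and sort date; points are cells and black lines medians. GFPlo cells of the later date sit at a median GFP of 2290 against 5960 on the earlier date, while their MHC class II medians are 58032 and 57983.5.

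Cells within the same range of GFP readings still differed in Aire between dates. Between 1871 and 4483, the range that both dates covered, lay 9 earlier and 13 later cells. Aire was at 389 CPM (332 to 454) in these earlier cells, with counts in 8 of 9 and a median of 369 CPM. It was at 37.7 CPM (25.4 to 53.8) in the later ones, with counts in 8 of 13 and a median of 15.9 CPM. Outside that range the 9 earlier cells, all brighter, were at 511 CPM, with counts in 6 of 9 and a median of 280 CPM. The 8 later cells outside it, all dimmer, were at 39.9 CPM, with counts in 4 of 8 and a median of 50.9 CPM. The range was picked with the values in view, and it assumes that the fluorescence scale was the same on both dates, which was not tested.

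Within a date, Aire level showed little relation to the GFP fluorescence of a cell. The rank correlation of Aire level with GFP fluorescence was -0.034 over the 18 earlier cells and 0.11 over the 21 later cells. With the GFP transcript it was 0.30 and 0.37. These are descriptions over cells that share libraries and date.

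**Figure D3:**
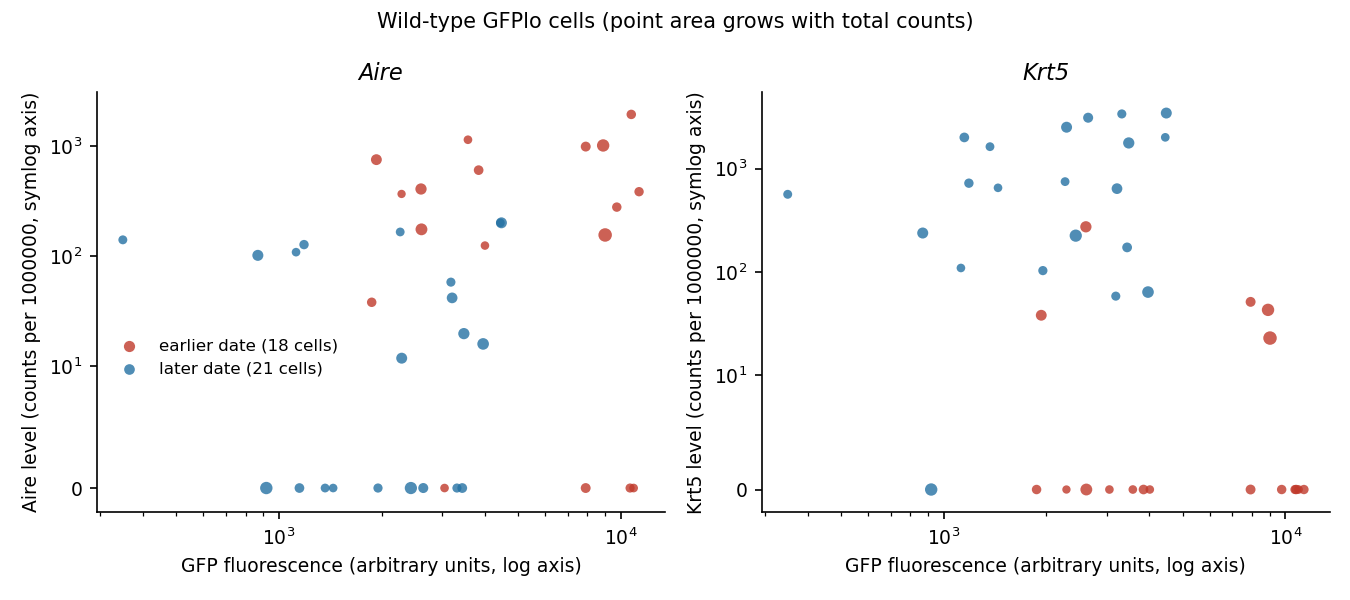
Aire and Krt5 level (CPM) of each wild-type GFPlo cell against its GFP fluorescence, earlier date red and later date blue; the area of a point grows with the cell's total count. Between 1871 and 4483, where both dates have cells, the earlier cells have a median Aire level of 369 CPM and the later cells 15.9 CPM.

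Many genes besides these differed between dates. Of 10282 genes with at least 20 counts over both dates, 3970 (38.6%) differed at least 4-fold, 18.3% with the higher level on the earlier and 20.3% with the higher level on the later date. In the GFPhi cells 33.6% differed by as much. The median log2 ratio of earlier over later level, with 0.5 count added, was 0.024 over all genes. Of genes with at least 10 counts, 50.5% were higher on the earlier and 49.5% on the later date. Gene groups are read against these shares.

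Epithelial markers were found in most cells on both dates. Even so, 11 of 18 earlier and 11 of 21 later cells held more leukocyte-list than epithelial counts. So did 21 of 23 earlier and 34 of 38 later GFPhi cells. Epcam, an adhesion molecule of epithelial cells, was found in 14 of 18 earlier and 18 of 21 later cells, at 818 and 348 CPM. Krt8, a simple-epithelium keratin, was found in 17 and 20 cells at 1778 and 1104 CPM, and its partner Krt18 in 17 and 16 cells at 653 and 361 CPM. The log2 ratio of Krt18 was 0.86, and -0.059 without the 3 earlier and 9 later cells with more leukocyte than epithelial counts when Srgn, Cst3 and Xbp1 were not counted. The 16 epithelial markers summed to 5440 and 6600 CPM, and with the ls primers alone that order turned (log2 ratio 0.028). Of 14 with at least 20 counts, 0 were at least 4-fold higher on the earlier and 4 on the later date, against 18.3% and 20.3% of all genes.

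Markers of other cell types were uneven. The 16 genes of B and plasma cells, which make antibodies, summed to 334 CPM on the earlier and 30556 CPM on the later date. More counts of these genes than of epithelial markers were found in 0 earlier and 5 later cells, and the 5 held 98.4% of the later counts of the list and 44.2% of all later counts. A single cell had 155585 CPM of the list, and without pool 12 the log2 ratio of the sums was -4.59 in place of -6.52. Ptprc, which encodes CD45, was found in 2 earlier and 11 later cells, at 1.84 and 93.0 CPM, although the gate was CD45-negative. Among GFPhi cells 1 of 23 and 8 of 38 were marked in the same way.

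Without these 5 cells, an alternative added once the values were known, Aire stayed 7.42-fold (5.39 to 10.5) higher on the earlier date, with a later level of 62.7 CPM. Krt5 stayed 37.8-fold (28.3 to 51.6) higher on the later date, at 1668 CPM and with counts in 16 of 16 remaining cells. The B and plasma cell list was at 855 CPM in them, against 334 CPM on the earlier date. Dendritic cell and macrophage genes summed to 1127 and 1061 CPM, and thymocyte genes to 88.2 and 107 CPM. The log2 ratio of the former was 0.087, and it was 0.68 without pool 11 and 1.13 without its leading gene Cst3, while in the shared GFP range thymocyte genes were at 38.7 and 124 CPM.

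Genes of stroma and endothelium summed to 337 and 1340 CPM, 3.97-fold (3.54 to 4.46) higher on the later date. Of 10 with at least 10 counts, 2 were higher on the earlier and 8 on the later date. In the shared GFP range the list was 8.26-fold higher on the later date, at 206 and 1699 CPM. Its part in the results on basal genes was not tested.

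Of 14 general leukocyte genes, 2 were higher on the earlier and 12 on the later date (median log2 ratio -2.40), while their sum, at 6218 and 4016 CPM, had the opposite order. Srgn, a proteoglycan core protein of secretory granules that is not confined to leukocytes, made up most of the earlier sum and was found in 18 of 18 earlier cells at 5291 CPM and in 20 later cells at 1060 CPM.

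Genes of mature medullary cells did not share one order. The 13 genes summed to 3035 CPM on the earlier and 1354 CPM on the later date. In the GFPhi cells they summed to 4755 and 3043 CPM, the same order. In the GFPlo cells 3 were at least 4-fold higher on each date, against 18.3% and 20.3% of all genes. The log2 ratio of the GFPlo sums was 1.16. It was 1.785 without pool 11 and 0.54 without the 5 later cells marked by B and plasma cell genes. Icosl, a ligand of the T cell costimulator ICOS, was at 1036 and 269 CPM, with counts in 15 and 19 cells. Cd40, a receptor for help from T cells, was at 210 and 54.6 CPM in 13 and 10 cells. Cd80, a ligand of CD28, was at 42.3 and 1.71 CPM in 5 and 2 cells, and Cd274, the inhibitory ligand PD-L1, at 109 and 28.997 CPM. Among cells in the GFP range that both dates covered the log2 ratio of Cd40 was -0.042, so its order rested on cells outside that range. Over all cells it was 1.93, and it was 1.26 without pool 6 and 2.83 without pool 11, and that of Cd80 went from 4.32 to 3.22 without pool 5.

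The chemokines Ccl17 and Ccl22, which attract cells bearing CCR4, had the opposite order. Ccl17 was at 3.68 and 212 CPM and Ccl22 at 16.5 and 256 CPM, but 73.1% and 95.3% of their later counts lay in 1 cell. Cd86, the other ligand of CD28, was at 19.3 and 33.3 CPM and was found in 3 and 5 cells, with 87.2% of its later counts in 1 cell. Its log2 ratio of -0.77 turned to 1.21 without pool 11.

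The RANK and NF-kB pathway, through which medullary cells mature, was higher on the earlier date in most members. Of 16 genes with at least 10 counts, 12 were higher on the earlier and 4 on the later date, with a median log2 ratio of 1.33 against 0.024 for all genes. Of all genes with at least 10 counts, 50.5% were higher on the earlier and 49.5% on the later date. Tnfrsf11a, which encodes the receptor RANK, was at 341 and 137 CPM, with counts in 14 cells on each date. Nfkbia, the inhibitor that NF-kB itself induces, was at 2524 and 789 CPM. Relb and Nfkb2, the subunits of the noncanonical arm, were at 141 and 35.8 CPM and at 109 and 42.6 CPM. Relb went from a log2 ratio of 1.96 to 0.57 without pool 6 and to 3.13 without pool 11. That of Tnfrsf11a, 1.31, was 0.50 without the 5 later cells marked by B and plasma cell genes. In the GFPhi cells the pathway genes summed to 4396 and 2810 CPM. Of the 16, 10 were higher there on the earlier and 6 on the later date.

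Map3k14, the kinase NIK of the same arm, was found in 8 of 18 earlier and 0 of 21 later cells, at least 33.8-fold higher against a floor of 3 counts on the later date. Tnfaip3, a deubiquitinase that restrains the pathway, was at 37.7 and 151 CPM and so went the other way. Only 2 members of the list reached 4-fold higher on the earlier and 1 on the later date, of 15 with at least 20 counts. Among all genes these shares were 18.3% and 20.3%. Most members of the list thus had ratios under 4-fold. Nfkb1, the precursor of the canonical subunit, was at 175 and 251 CPM, and Rela, its partner, at 118 and 39.2 CPM.

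Genes of immature or basal medullary cells were higher on the later date. The 13 genes summed to 3241 CPM on the earlier and 8321 CPM on the later date, and 10 later cells exceeded every earlier cell in the sum. Of the 13, 2 were higher on the earlier and 11 on the later date, with a median log2 ratio of -1.72. At least 4-fold higher on the later date were 5, against 20.3% of all genes, and 0 on the earlier.

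Ccl21a, the chemokine of immature medullary cells that draws in CCR7-bearing thymocytes, was at 24.8 and 323 CPM, in 4 and 18 cells. Trp63, the p63 transcription factor of basal epithelium, was at 8.27 and 136 CPM in 2 and 15 cells. Cd44, a hyaluronan receptor, was at 72.6 and 665 CPM in 11 and 18 cells. Krt14, the partner of Krt5, was at 151 and 578 CPM in 12 and 20 cells, a smaller ratio than that of Krt5. Without 1 pool some of these log2 ratios moved, that of Ccl21a from -3.68 to -5.16 without pool 5, that of Trp63 from -3.96 to -6.49 without pool 1 and that of Cd44 from -3.19 to -2.56 without pool 11.

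Other members of the list had smaller ratios or the opposite order. Itga6 and Itgb4, the integrin subunits that anchor basal cells, had log2 ratios of 0.045 and 1.22, and Ly6a was at 1278 and 2644 CPM. The later low cells therefore held more counts of the basal keratins and Ccl21a, but not of every basal gene listed.

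**Figure D4:**
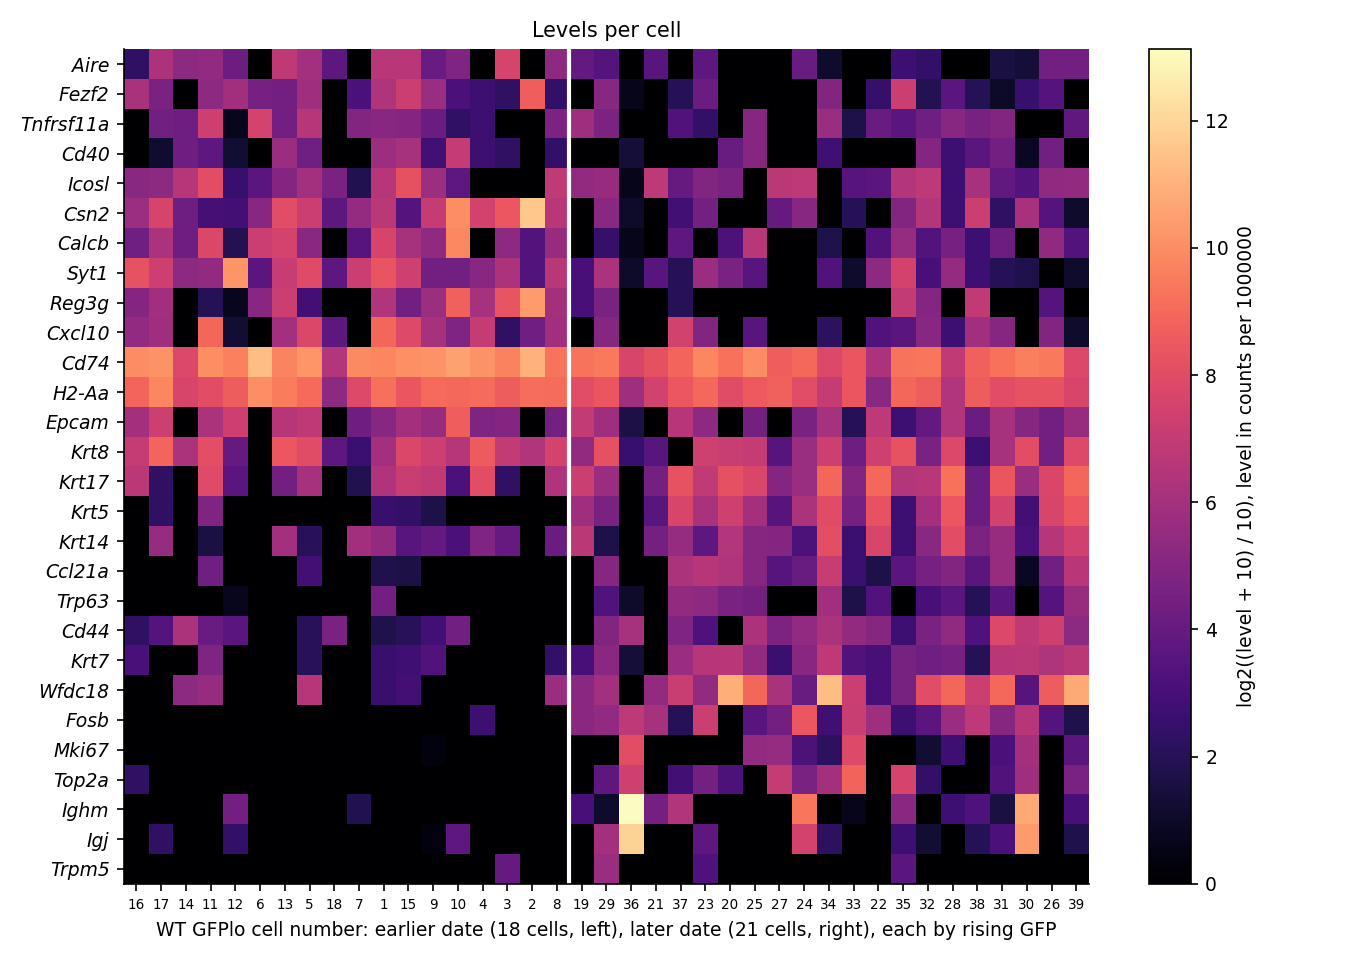
Level of 28 genes in each of the 39 wild-type GFPlo cells, as log2 of (CPM + 10) over 10, with cells ordered by rising GFP fluorescence within each date. The block of Aire, Fezf2 and antigen genes is filled mainly in the earlier cells and that of Krt5 and Ccl21a mainly in the later cells, where Krt5 was found in 20 of 21.

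Individual keratins differed in opposite directions. The 22 keratins summed to 5021 and 5811 CPM, with 8 members higher on each date. The log2 ratio of the sums, -0.21, depended on the cells entered, at 0.28 with the ls primers alone, -0.83 in the shared GFP range and -0.87 without the 5 later cells marked by B and plasma cell genes. Krt17, a keratin of basal and activated epithelium, was at 970 and 1690 CPM in 14 and 20 cells, and Krt7, a keratin of ductal epithelium, at 67.1 and 484 CPM in 7 and 20 cells. Krt16, of activated epidermis, was at 4.59 and 403 CPM with 55.4% of later counts in 1 cell, and Krt79 at 116 and 5.12 CPM with 74.6% of earlier counts in 1 cell.

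Genes of proteins that bind or assist Aire did not follow Aire as a group. Of 24 with at least 10 counts, 7 were higher on the earlier and 17 on the later date, with a median log2 ratio of -0.98. Sirt1, a deacetylase that acts on Aire, was at 484 and 115 CPM with counts in 14 cells on each date, and Supt16, a histone chaperone subunit, at 473 and 259 CPM in 18 and 19 cells. Top1, a DNA topoisomerase, was at 71.7 and 258 CPM in 9 and 15 cells, and Ccnt2, a cyclin of the elongation factor P-TEFb, at 4.59 and 137 CPM in 3 and 12 cells, while its relative Ccnt1 was at 108 and 48.6 CPM. Mbd1, which binds methylated DNA, had 1 count on the earlier and 125 on the later date.

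MHC class II transcripts were moderately higher on the earlier date. The 14 genes summed to 26536 and 15028 CPM, with 13 higher on the earlier and 1 on the later date and a median log2 ratio of 0.84. In the sum, 11 earlier cells exceeded every later cell. Cd74, the invariant chain that escorts class II molecules, was at 10592 and 4469 CPM, a ratio of 2.37 (2.29 to 2.45). The classical chains H2-Aa and H2-Ab1 were at 4697 and 2514 CPM and at 4390 and 2562 CPM.

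H2-Eb2 was the member that reached 4-fold, at 552 and 87.0 CPM, and H2-Eb1 had a log2 ratio of 0.12. Ciita, the master regulator of the group, was at 127 and 49.5 CPM, found in 7 and 12 cells. With each cell weighted equally its log2 ratio turned to -0.80, and it was 0.76 without pool 6 and 2.00 without pool 10 in place of 1.35. That of H2-Eb2, 2.66, was 3.30 without pool 11. MHC class I genes summed to 17152 and 15350 CPM with a median log2 ratio of 0.056.

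Tissue antigens, the genes of other organs that medullary cells express, were higher on the earlier date as a sum. Of 163 such genes in 9 lists (milk, liver, pancreas, gut, glands and airway, cornified epithelium, nerve, reproductive tract and muscle), 53 had no counts. The sum was 11421 and 4710 CPM, and per cell it ran from 1376 through a median of 11590 to 84147 CPM on the earlier and from 208 through 2012 to 43382 CPM on the later date. The cells overlapped widely. Of 79 genes with at least 10 counts, 54 were higher on the earlier and 25 on the later date, with a median log2 ratio of 1.78.

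Of 73 antigens with at least 20 counts, 35 were at least 4-fold higher on the earlier and 11 on the later date, against 18.3% and 20.3% of all genes. After thinning to 10000 counts a median of 16 antigens (6 to 29) was detected per earlier cell and 10 (3 to 21) per later cell. All genes together did not show that order, with medians of 2623.5 and 2786 genes detected. Without the cells that held more leukocyte-list than epithelial counts, which kept 7 earlier and 10 later cells, the sum turned to a log2 ratio of -0.24. That rule also removed earlier cells for Srgn, Cst3 and Xbp1. Without only the 5 later cells marked by B and plasma cell genes the log2 ratio was 0.57, against 1.28 with all cells.

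Nerve genes had the highest ratio among the antigen lists with counts on both dates. They summed to 4022 and 280 CPM, and 10 earlier cells lay above every later cell. Of 11 measured members, 10 were higher on the earlier date, 8 of them at least 4-fold, against 50.5% and 18.3% of all genes. Syt1, a calcium sensor of synaptic vesicles, was found in 18 and 18 cells at 2460 and 141 CPM, with 64.5% of its earlier counts in 1 cell. Calcb, which encodes a calcitonin gene-related peptide, was at 838 and 64.8 CPM in 16 and 14 cells, and its top earlier cell held 25.5%. Tac1, the precursor of substance P, was found in 6 earlier and 0 later cells at 340 CPM, with 67.8% in 1 cell. Without pool 5 the log2 ratio of the list went from 3.84 to 3.26 and that of Syt1 from 4.12 to 2.93.

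Milk, pancreas, gut and muscle genes had the same order as sums, at 2008 and 297 CPM, 878 and 145 CPM, 1095 and 421 CPM and 410 and 126 CPM. Their log2 ratios of 2.76, 2.59, 1.38 and 1.70 shrank in part without 1 pool, for milk to 2.16 without pool 4 and for pancreas, gut and muscle to 1.80, 0.31 and 1.08 without pool 1. In the shared GFP range milk was at 1.55 and pancreas at 0.84. Csn2, the milk protein beta-casein, was at 1355 and 225 CPM in 18 and 15 cells, a ratio of 6.02 (5.27 to 6.88). Reg3g, an antimicrobial lectin of gut and pancreas, was at 612 and 94.7 CPM in 15 and 7 cells. Des, the muscle filament desmin, was at 356 and 46.9 CPM in 15 and 6 cells. The order of the muscle sum rested on Des, and without it the log2 ratio was -0.54. Of 3 muscle genes with at least 10 counts, 1 was higher on the earlier and 2 on the later date. Fabp6, the bile acid binding protein of the ileum, was at 580 and 18.8 CPM in 9 and 5 cells, and its log2 ratio of 4.92 was 1.38 without pool 1. Without that pool Des went from 2.91 to 2.22 and Reg3g from 2.69 to 2.08. Csn2 went from 2.59 to 3.24 without pool 11, and it was 1.16 in the shared GFP range. Ins2, insulin, had only 5 and 2 counts.

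Antigens that turned up in few cells dominated other lists. Csn1s1, another casein, was at 394 CPM on the earlier date with 92.5% in 1 of 5 cells, and Krt10, a keratin of the upper epidermis, at 1033 CPM with 93.5% in 1 of 4 cells. Neither had counts on the later date. Krtdap, a differentiation gene of keratinocytes, was at 73.5 and 1214 CPM with 60.7% of its later counts in 1 cell, and its log2 ratio of -4.04 was -7.38 without pool 3 and -2.74 without pool 9. Cornified genes summed to 2062 and 2675 CPM and gland and airway genes to 482 and 555 CPM. Their log2 ratios of -0.38 and -0.20 turned to 0.70 without pool 9 for cornified genes, to 0.0081 for the same genes without pool 6 and to 0.077 without pool 5 for gland and airway genes.

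**Figure D5:**
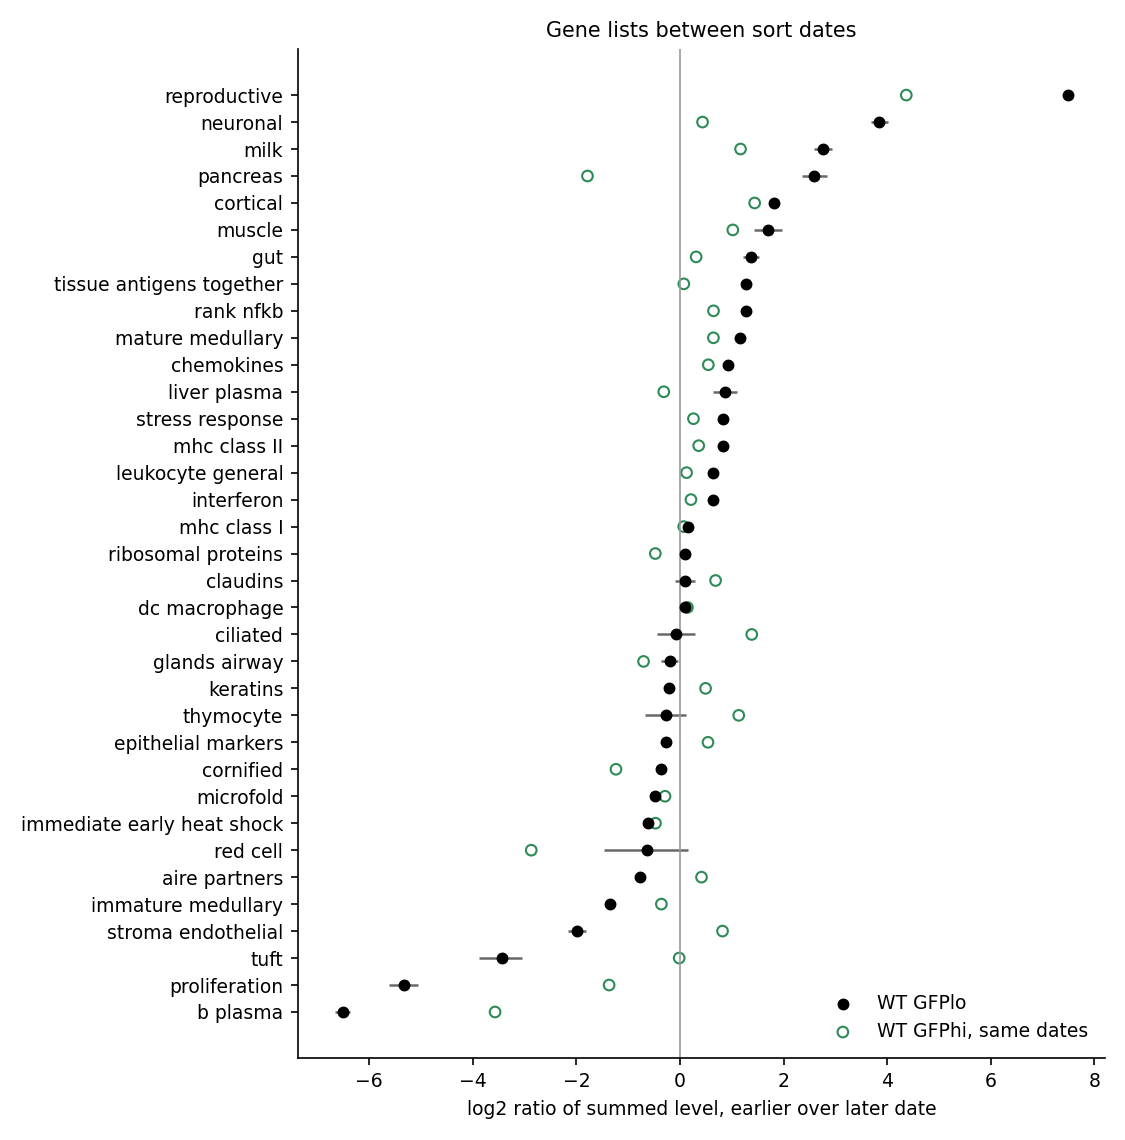
Log2 ratio of the earlier over the later date for the summed counts of each gene list, in wild-type GFPlo cells (black, lines are 95% counting intervals) and GFPhi cells (open green circles). In the GFPlo cells the reproductive list, with 83 counts on the earlier and 0 on the later date, is drawn furthest to the earlier side and has no upper bound, followed by nerve genes at 3.84; B and plasma cell genes furthest to the later side at -6.52, and MHC class I genes near 0 at 0.16.

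Tuft and microfold genes were higher on the later date. The 17 genes of tuft cells, chemosensory cells that also occur in the medulla, summed to 47.8 and 524 CPM. All 11 measured members were higher on the later date, against 49.5% of all genes. A single later cell held 52.1% of the sum, and the log2 ratio of -3.44 was -1.30 without pool 11 and -4.41 without pool 1. Trpm5, their ion channel, was at 3.68 and 40.9 CPM with 91.7% of later counts in 1 cell, Pou2f3, their defining transcription factor, at 1.84 and 46.1 CPM in 2 and 8 cells, and Dclk1 at 13.8 and 25.6 CPM in 8 and 5 cells. Microfold genes summed to 1606 and 2259 CPM, and that order turned without the cell with most counts of the list, a later one (log2 ratio 0.22). Spib, a transcription factor that microfold cells and B cells both use, was at 106 and 293 CPM.

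Genes of cortical epithelium and chemokines hung on few cells. Cortical genes summed to 4645 and 1316 CPM, and without the cells with more leukocyte-list than epithelial counts that order turned (log2 ratio -0.56). Ccl25, a chemokine for thymocytes, was at 2571 and 134 CPM with 85.4% of earlier counts in 1 cell, and Psmb11, the subunit of the thymus proteasome, at 277 and 4.26 CPM with 93.7% in 1 cell. Without pool 4 the log2 ratios of the list, Ccl25 and Psmb11 went from 1.82, 4.26 and 5.88 to 0.76, 2.01 and 2.46. Cxcl10, an interferon-induced chemokine, was spread more evenly, at 1388 and 157 CPM in 15 and 13 cells.

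Interferon-induced genes were mixed as well. Of 21, 7 were higher on the earlier and 14 on the later date, with a median log2 ratio of -0.84, while the sum, led by Cxcl10, was 3269 and 2115 CPM. Irf7, a transcription factor of the response, had 1 count on the earlier and 133 on the later date, and Usp18, which restrains it, was at 451 and 166 CPM. Irf1, another factor of the response, was at 174 and 52.9 CPM in 10 and 11 cells.

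Genes of the cell cycle had few counts on the earlier date, though 14 of 18 cells held some. The 20 genes summed to 103 and 4150 CPM. All 20 were higher on the later date, 19 of them at least 4-fold, against 49.5% and 20.3% of all genes. Mki67, a marker of cycling cells, had 1 count on the earlier and 1018 on the later date, and Top2a, a DNA topoisomerase of dividing cells that also binds Aire, 1 and 1333 counts. The 5 cells marked by B and plasma cell genes held 89.5% of the later counts of the list and 97.3% of those of Mki67. In the other 16 later cells the list was at 784 CPM, 7.62-fold (6.20 to 9.43) higher than on the earlier date, with Mki67 in 6 and Top2a in 9 cells at 41.3 and 214 CPM. The list summed to 661 and 1709 CPM in the GFPhi cells, the same order. Of its 20 genes, 4 were higher there on the earlier and 16 on the later date.

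Immediate early genes, which cells switch on within minutes of a stimulus, were found in nearly every later cell. Fosb had 1 count in 1 earlier cell and 819 counts in 20 of 21 later cells, at 0.919 and 698 CPM, and 18 later cells exceeded every earlier cell. The 5 later cells marked by B and plasma cell genes held 75.1% of the later Fosb counts, and the other 16 were at 312 CPM, with counts in 15 of them. Fos was at 298 and 1244 CPM in 6 and 20 cells, and Egr1 at 68.0 and 416 CPM in 9 and 18 cells. Fos, with a log2 ratio of -2.06, was at -3.64 without pool 5 and -1.45 without pool 11. Fosb was at 20.6 and 334 CPM in the GFPhi cells, the same order.

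The list of immediate early and heat shock genes had 4 members higher on the earlier and 16 on the later date, with a median log2 ratio of -1.54. Genes of the general stress response went the other way, with 11 and 4 members. Hspa5, the chaperone of the endoplasmic reticulum, was at 1630 and 971 CPM, and Trib3, a pseudokinase of the stress response, at 172 CPM on the earlier date with 90.4% of counts in 1 cell. In the shared GFP range the log2 ratio of the summed stress genes was -0.17, against 0.84 with all cells.

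Genes ranked over the whole table gave further members of each pattern. Highest on the earlier date was Psors1c2, a gene of the psoriasis susceptibility locus, with 153 counts in 14 of 18 earlier cells and 0 in the later cells, at least 54.95-fold higher against a floor of 3 counts on the later date, while the lower bound of the exact interval was 44.2. Get4, which takes part in inserting proteins into membranes, and Tbc1d20, a regulator of Rab proteins, followed, each with counts in 8 earlier and 0 later cells, with lower bounds of 43.3 and 38.02. Calb1, a calcium-binding protein of neurons, came next with counts in 8 earlier and 0 later cells and a lower bound of 35.98, and Klk14, a skin protease, had a lower bound of 29.6. Crhbp, which binds corticotropin-releasing hormone, was at 150 and 1.71 CPM and Epha3, an ephrin receptor, at 112 and 0.853 CPM. B3galt2, Cnst, Cpeb1, AU022252 and Atad3a completed the 12.

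Among the genes highest on the later date, beside Mki67 and Fosb, was Stmn1, a microtubule regulator, with counts in 0 of 18 earlier and 17 of 21 later cells, at least 86.9-fold higher against a floor of 3 counts on the earlier date, with an exact lower bound of 70.2. Wfdc18, a secreted protein of the WAP family, was at 97.4 and 4555 CPM in 6 and 20 cells, and Ighe, Cd79b, Rrm2, Rgs2, Dusp5, Rcn1 and Apoe were also among them. The 5 cells marked by B and plasma cell genes held 97.8% of the later counts of Rrm2, 80.4% of Stmn1, 74.2% of Cd79b and 62.6% of Dusp5. They held 26.3% of Rcn1, 18.5% of Rgs2, 16.4% of Ighe, 8.04% of Apoe and 5.30% of Wfdc18. Without them the lower bound for Stmn1 was 23.98. Ighe was at 0.919 and 432 CPM here and reached 14902 CPM in the GFPhi cells of the later date.

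By share of cells after thinning, genes of general function were among the most different. Mrpl43, a mitochondrial ribosome protein, was found in 78.6% of earlier and 11.1% of later cells, and Gramd1b, a sterol transporter, in 71.4% and 5.56%. Aim1, Vgll4, Tmed4, Dpp10, N4bp2l1, Cystm1, Timp1 and Nos2 completed the 10 for the earlier date. For the later date Top2a was found in 0% and 77.8%, Fos in 28.6% and 100%, and Krt5 in 21.4% and 88.9% of cells, with Fosb, Wfdc18, Tagln2, Gnai2, Lars2, Cmss1 and Mgea5 beside them.

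Among the genes whose level was most like that of Aire over the 39 cells, of 6144 compared, was Jarid2, a subunit of a Polycomb complex, at a rank correlation of 0.68. Within the earlier date it was 0.67 and within the later date 0.34. Hs3st3b1, Fis1, Chd6, Rasef, Bin1 and Des were also among them, at 0.65 to 0.67. The cells share date and depth, and Aire itself differed by date, so these values are descriptions.

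In the low-gate cells labelled as Aire knockout the order of the dates was shared by some genes and not by others. Aire itself was at 622 and 138 CPM in them, so the counts give no check of the genotype label, and which part of the gene was deleted is not given in the sources used here. Krt5 was at 20.6 and 464 CPM in these cells, Ccl21a at 1.47 and 268 CPM, Fosb at 28.02 and 756 CPM and Wfdc18 at 29.5 and 3495 CPM, all higher on the later date as in the wild-type low cells. Fezf2, at 922 and 183 CPM, Csn2, at 2547 and 1132 CPM, and Cd74, at 10931 and 7693 CPM, were higher on the earlier date, again as in the wild-type cells. H2-Aa, at 4386 and 5463 CPM, H2-Ab1, at 4000 and 4433 CPM, and Epcam, at 198 and 337 CPM, had the opposite order to the wild-type cells. So did the summed levels of Mki67, at 234 and 65.9 CPM, and Top2a, at 292 and 133 CPM. Mki67 was found in 3 of 22 earlier and 13 of 30 later knockout cells, and Top2a in 6 and 12. By share of cells both were thus higher on the later date, as in the wild-type low cells. The difference between genotypes in these ratios was not tested.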

How the data were processed

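Single cells were sorted into plates, and their RNA was reverse transcribed from oligo dT, amplified by in vitro transcription and sequenced in pools, per the labels' protocols. Values in the authors' expression table are whole-number counts, 1 column a cell. The submitters' processing notes name TopHat, TopHat2, HTSeq, Picard 1.79, SAMtools 0.1.19 and mm10 without roles. Whether molecular identifiers were collapsed is not given in the sources used here. In 10 of the 39 WT_GFPlo cells the total count exceeded the identifier count that the authors give. The counting intervals assume independent tags, which was not tested. The authors' deposited cell table gives the sort date, cytometer fluorescence intensity and GFP transcript counts.

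Counts were summed by date and divided by the sum over 38406 genes. The 37 mitochondrial genes had 0 counts. All columns matched a labelled cell. Intervals are exact at 95%, from SciPy 1.17.1 with Python 3.11.15, NumPy 2.4.6 and pandas 2.3.3, and figures were drawn with matplotlib 3.10.9. Shares used cells thinned to 10000 counts. A ratio was read as past the fold at 4-fold with at least 20 counts. Calculations were tested on simulated data. The scaling factors of the trimmed mean of M-values (TMM) came from edgeR 4.0.16 in R 4.3.3, and no count model was fitted, since each date is 1 sample. Coordinates are from the mm10 GENCODE M21 annotation, matched by symbol. Genes with near-identical copies (H2, immunoglobulin) have uncertain counts, as the counting of shared reads is not given.

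Members and gene lists were chosen with earlier results of these data known. Genes were named as a set list, as the 12 highest on each date by the interval bound nearest to 1 (counts in at least 5 cells, at most 50% in 1 cell), as the 10 with the largest difference in share in each direction, as list members with most counts or extreme ratios, and as the 8 most like Aire. Alternatives were other scalings, fold and count limits, depths, primers, single pools or the cell with most counts of a gene or list left out, and cells with leukocyte counts left out. Some genes that these rules named are not reported here.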

Additional observations from a re-analysis of the deposited data

How the results depend on the processing

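Values are log2 ratios of the earlier over the later date unless stated, in the order Aire, Fezf2, Krt5, mature list, immature list, MHC class II list, antigens together and GFP transcript where given. No paired analysis was possible because the dates share no replicate number that marks an animal and each date is 1 sample. The directions of Aire, Fezf2, Krt5, the GFP transcript and the mature, immature and MHC class II lists held under every alternative run. The antigen sum reversed once.

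With each cell weighted equally the values were 3.03, 2.14, -5.57, 0.66, -1.60, 0.70, 1.43 and 3.59. With ls primers only, Krt5 was -3.55, the mature list 0.87, the immature list -1.06, MHC class II 0.74, antigens 1.98 and the GFP transcript 5.07. Without the cell with most counts of the gene or list, Fezf2 was 2.44, the mature list 0.74, the immature list -1.19, MHC class II 0.77, antigens 1.23 and the GFP transcript 3.51. With TMM scaling the immature list was -1.42, MHC class II 0.76 and antigens 1.22. Relative to the GFPhi cells the GFP transcript was 5.33. Without cells holding more leukocyte-list than epithelial counts, Aire was 3.05, Fezf2 0.88, the mature list 2.05, the immature list -1.43, MHC class II 0.94, antigens -0.24, GFP fluorescence 0.54, MHC class II fluorescence 0.72 and the GFP transcript 3.82. The cause of that reversal was not tested.

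Among the alternatives added after seeing the data, the shared GFP range gave Fezf2 2.46, the mature list 0.59, the immature list -0.88, MHC class II 0.64 and antigens 0.75. Without cells holding more B and plasma cell than epithelial counts the 8 values were 2.88, 2.18, -5.23, 0.54, -1.72, 0.71, 0.57 and 3.51. Without cells holding more leukocyte counts when Srgn, Cst3 and Xbp1 are not counted (3 and 9 cells) they were 2.80, 1.97, -5.38, 1.75, -1.84, 0.78, 0.29 and 3.31.

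The difference in the share of cells with Aire counts, 43.7 percentage points, was 20.6 without thinning, 50 at 20000 counts and 51.6 with at least 2 counts. Past the fold were 3970 genes, 2309 with at least 50 counts and 6432 at 2-fold. Leaving out each pool gave ranges of 3.05 to 3.94 for Aire, 2.50 to 3.14 for Fezf2, -5.31 to -4.16 for Krt5, 0.79 to 1.785 for the mature list, -1.67 to -1.14 for the immature list, 0.64 to 1.19 for MHC class II, 0.73 to 1.80 for antigens, 38.1 to 52.2 points for the share, 0.70 to 1.88 for GFP fluorescence, -0.044 to 0.18 for MHC class II fluorescence, 3.41 to 5.76 for the GFP transcript, 3677 to 4041 for genes past the fold and -0.22 to 0.039 for genes detected per cell. The median of the GFP transcript gave no ratio, since the later median was 0.

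Other lists and genes whose counting interval excluded equal levels, and that reversed, were these. Without leukocyte-list cells, glands were 0.13, microfold genes 1.28, cortical genes -0.56 and Psmb11 -2.36. With ls primers, epithelial markers were 0.028, keratins 0.28, cornified genes 2.56, Krtdap 1.64 and Fis1 -0.071. In the shared GFP range, chemokines were -0.012, stress genes -0.17 and Cd40 -0.042. Without B and plasma marked cells Fis1 was -0.10. With Srgn, Cst3 and Xbp1 not counted, microfold genes were 0.96, interferon genes -0.0012, Krt18 -0.059 and Fis1 -0.18. Without the cell with most counts of the gene or list, glands were 0.21, cornified genes 0.70, microfold genes 0.22 and Fis1 -0.14. With cells weighted equally, glands were 0.44 and Ciita -0.80. Leaving out each pool, glands ran from -0.52 to 0.077 (reversed without pool 5), cornified genes from -2.30 to 0.70 (reversed without pools 6 and 9) and Fis1 from -0.21 to 1.84 (reversed without pool 6). Of 93 genes and 30 lists followed, 72 and 16 moved by more than 1.5 times without some pool. The sign also turned without some pool for 3 genes and 4 lists whose interval included equal levels: Cd86 (-1.76 to 1.21), Ins2 (-0.57 to 2.41), Ivl (-3.18 to 1.21), ciliated (-2.46 to 0.82), dendritic cell and macrophage (-0.18 to 0.68), claudin (-0.16 to 0.91) and red cell genes (-2.08 to 0.98).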
